A study of Mus musculus with 48 samples.

Results

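The 9 genes described here encode organic anion and drug transporters of mouse liver, out of 29221 genes in the joined count tables. They are Slco1a1, Slco1a4, Slco1b2, Slco2a1, Slco2b1, Slc22a26, Abcc2, Abcc3 and Abcc4, taken by name. All 9 passed the filter on low counts in each of the comparisons made. Some were picked with their values in these livers known: Slco1a1 in males on the HF diet and Slc22a26 in males on the HFCF diet had already stood out between labelled knockouts and controls, so those 2 pairs of gene and comparison are given as values with no test and left out of the counts of called members in those 2 comparisons. The male libraries of those 2 comparisons also enter the comparisons of sexes and of diets and the tests of differences between effects. Calls of the gene concerned there reuse values on which it was picked and are not independent of that choice.

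RNA was sequenced from the whole livers of 48 mice that carried a floxed Pparg gene, which encodes the nuclear receptor PPARγ. All mice, controls included, received an AAV8 virus after 16 weeks on diet. The labelled knockouts received AAV8-TBG-Cre, in which the TBG promoter drives Cre recombinase in hepatocytes, and the controls received AAV8-TBG-null. Other liver cells keep the floxed gene. Low fat (LF) females ate the LF diet for 34 weeks, and high fat (HF) mice of both sexes ate the HF diet for 34 weeks. The HFCF mice ate the HF diet for 18 weeks and then a diet rich in fat, fructose and cholesterol for 16 weeks. Each of the 4 male groups (HF and HFCF, control and labelled knockout) had 6 libraries, and each of the 6 female groups (LF, HF and HFCF, control and labelled knockout) had 4. Replicates of the HFCF control females are numbered 1, 2, 3 and 5. Males and females were separate sets of animals, so sex and any difference in handling between the sets cannot be told apart.

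Hepatocytes take up bile acids, bilirubin, steroid conjugates and many drugs from portal blood through organic anion transporting polypeptides (OATPs, the Slco genes) and through members of the SLC22 family. ATP-driven pumps of the ABCC (multidrug resistance-associated protein) family then export their conjugates. Abcc2 sits in the canalicular membrane and empties into bile, whereas Abcc3 and Abcc4 sit in the basolateral membrane and empty into blood. In mouse liver several of these genes differ between the sexes, under the control of the pituitary pattern of growth hormone secretion, which acts through the transcription factor STAT5B.

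The promoters of 3 members are shown first: Slco1a1 and Slc22a26, which differed most between the sexes in opposite directions, and Slco1a4, the neighbour of Slco1a1 on the same strand. In GRCm38, Slco1a1 (ENSMUSG00000041698) spans 141907282 to 141946962 on the minus strand of chromosome 6, and Slco1a4 (ENSMUSG00000030237) spans 141805440 to 141856199 on the minus strand of chromosome 6. Their levels went in opposite directions between the sexes. Slc22a26 (ENSMUSG00000053303) spans 7781041 to 7802667 on the minus strand of chromosome 19. The windows are the 250 bases before each RefSeq transcription start (build GRCm38.p6), 5′ to 3′ on the gene's strand, with matches to the motifs below in capitals. The Slco1a1 window is chr6:141946963-141947212, the Slco1a4 window is chr6:141856221-141856470 and the Slc22a26 window is chr19:7802668-7802917.
Slco1a1: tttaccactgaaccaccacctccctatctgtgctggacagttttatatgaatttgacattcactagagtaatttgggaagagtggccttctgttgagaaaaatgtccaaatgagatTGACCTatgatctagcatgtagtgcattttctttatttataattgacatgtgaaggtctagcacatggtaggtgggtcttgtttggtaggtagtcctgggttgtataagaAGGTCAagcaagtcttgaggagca
Slco1a4: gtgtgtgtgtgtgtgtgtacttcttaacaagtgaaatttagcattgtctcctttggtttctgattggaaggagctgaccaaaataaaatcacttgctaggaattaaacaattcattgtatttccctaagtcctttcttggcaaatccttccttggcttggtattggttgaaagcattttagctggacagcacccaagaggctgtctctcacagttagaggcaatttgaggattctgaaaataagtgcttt
Slc22a26: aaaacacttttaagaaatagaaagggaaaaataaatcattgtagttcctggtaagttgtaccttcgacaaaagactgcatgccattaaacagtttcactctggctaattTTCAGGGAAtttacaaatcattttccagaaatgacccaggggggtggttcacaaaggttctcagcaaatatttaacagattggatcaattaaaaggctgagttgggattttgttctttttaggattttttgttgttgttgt
The capitals in Slco1a1 are the nuclear receptor half-site AGGTCA, at -24 to -19 on the gene's strand and at -134 to -129 on the opposite strand, where it reads TGACCT. Slc22a26 held 1 match to TTCNNNGAA, the core bound by STAT5, at -141 to -133. Slco1a4 held no match to any of the 6 motifs searched.

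The 6 motifs, chosen after the values were seen, were searched on both strands. Among 32851 RefSeq promoter windows of the same length, AGGTCA was found in 14.02% and TTCNNNGAA in 7.02%. The shares were 10.16% for TGACNNNGC, a core of the NRF2 site, 28.16% for GCGTG, bound by the aryl hydrocarbon receptor AHR, and 6.432% for GTTAAT, an HNF1 half-site. The PPAR direct repeat, which holds AGGTCA and so overlaps with it, was in 0.03348% and in 0 of the members' windows. Of the 9 members, 8 had a window in the table; Abcc3 is named only. TTCNNNGAA also occurred in Slco1b2 and in 1 of the 3 windows of Slco2b1, neither of which differed as widely between the sexes. A match of letters is a description and no evidence of binding.

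The other 6 genes lie as follows. Slco1b2 (ENSMUSG00000030236) spans 141629518 to 141686646 on the plus strand of chromosome 6, beside the other Slco1 genes. Slco2a1 (ENSMUSG00000032548) spans 102988712 to 103096002 on the plus strand of chromosome 9, and Slco2b1 (ENSMUSG00000030737) spans 99657804 to 99711340 on the minus strand of chromosome 7. Abcc2 (ENSMUSG00000025194) spans 43782192 to 43840740 on the plus strand of chromosome 19, Abcc3 (ENSMUSG00000020865) spans 94343295 to 94392997 on the minus strand of chromosome 11, and Abcc4 (ENSMUSG00000032849) spans 118482692 to 118706219 on the minus strand of chromosome 14. Values were deposited per gene, so no value belongs to a single exon or untranslated region.

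Libraries held 15338239 to 22072884 counted reads, and levels are given as CPM, that is TMM-scaled counts relative to library size. Pparg, the targeted gene, was not lower in the labelled knockouts: in HF males it spanned 27.65 to 38.1 CPM in controls and 18.0 to 61.6 CPM in labelled knockouts, and in HFCF males 26.0 to 39.1 and 48.4 to 63.7 CPM. In females it spanned 7.80 to 14.7 and 10.4 to 23.0 CPM on the LF diet, 13.3 to 23.2 and 20.3 to 38.9 CPM on the HF diet, and 21.7 to 25.2 and 39.1 to 59.3 CPM on the HFCF diet, controls first. The counts cover the whole gene, so a deletion of part of it is not checked by them, and the term labelled knockout is kept. Cidec, a known target of PPARγ chosen here after its values were seen, spanned 113 to 156 CPM in HF control males and 4.49 to 6.35 CPM in HF labelled-knockout males. In HFCF males it spanned 154.1 to 172.4 and 11.28 to 43.92 CPM, controls first. In LF females its ranges, 4.934 to 9.799 and 4.59 to 7.662 CPM, overlapped. In HF females they nearly met, at 6.324 to 56.52 and 2.739 to 6.222 CPM. In HFCF females they were 42.61 to 79.09 and 4.135 to 16.15 CPM. Alb, the defining hepatocyte gene, was at no less than 26610 CPM in any library, and the 3 pancreas markers found (of 5 listed) summed to at most 0.1725 CPM. The labels do not say that the libraries of a group came from separate cages or days. The p-values set group differences against the spread between these livers, and any cage or day difference between groups is not separated. In bulk tissue, fewer cells of a type and less RNA per cell cannot be told apart.

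In all, 5 libraries are named throughout where they bear on a value, and were singled out after the values were seen. The HFCF control male replicate 1, HFCF labelled-knockout female replicate 1, HF control female replicate 1 and LF control female replicate 1 lay 1.914, 1.792, 1.436 and 1.405 times as far from the rest of their group as the next library did. HF labelled-knockout male replicate 6 lay 1.118 times as far and was added because of its Slco1a1 (581 CPM), its Pparg (18.0 CPM, lowest of its group) and its Hsd3b5 (146.2 CPM, against 0.135 to 1.62 CPM in the other 5), a male-predominant steroid dehydrogenase gene. Its Cidec, at 4.54 CPM, lay within the labelled knockouts.

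Levels per kilobase of gene model set the members far apart. Over all 48 libraries the median was 231 CPM per kb for Slco1b2, the main liver OATP for bilirubin and statin uptake, 107 for Abcc2, 55.8 for Abcc3 and 36.9 for Slco2b1. It was 17.85 for Slco1a4, 4.11 for Slc22a26, 3.805 for Slco2a1, 1.62 for Slco1a1 and 1.12 for Abcc4. The genes with the lowest medians, and Slco1a4 and Slc22a26, varied most. The highest group mean was 262.8 times the lowest for Slc22a26, 63.45 times for Slco1a1, 8.53 times for Abcc4, 4.44 times for Slco1a4 and 4.29 times for Slco2a1. That ratio was 2.36 for Abcc3, 1.835 for Slco2b1, 1.76 for Slco1b2 and 1.36 for Abcc2, the steadiest member. In the order of the 10 groups, neighbouring groups overlapped in range for each member, except that every HF control male was above every HF labelled-knockout male for Abcc4, the lowest pair in its order.

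**Figure D1:**
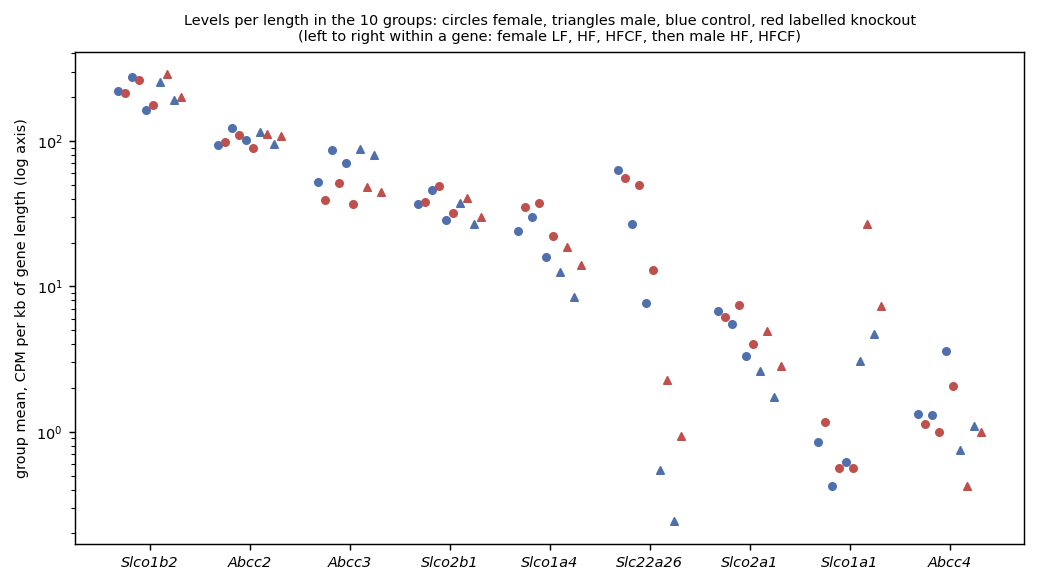
Group means in CPM per kilobase of gene model (log axis) for the 9 members, with circles for female and triangles for male groups, blue for control and red for labelled knockout. Slco1b2 has the highest median (231 CPM per kb) and Abcc4 the lowest (1.12), and Slc22a26 and Slco1a1 have the widest spread between groups.

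**Figure D2:**
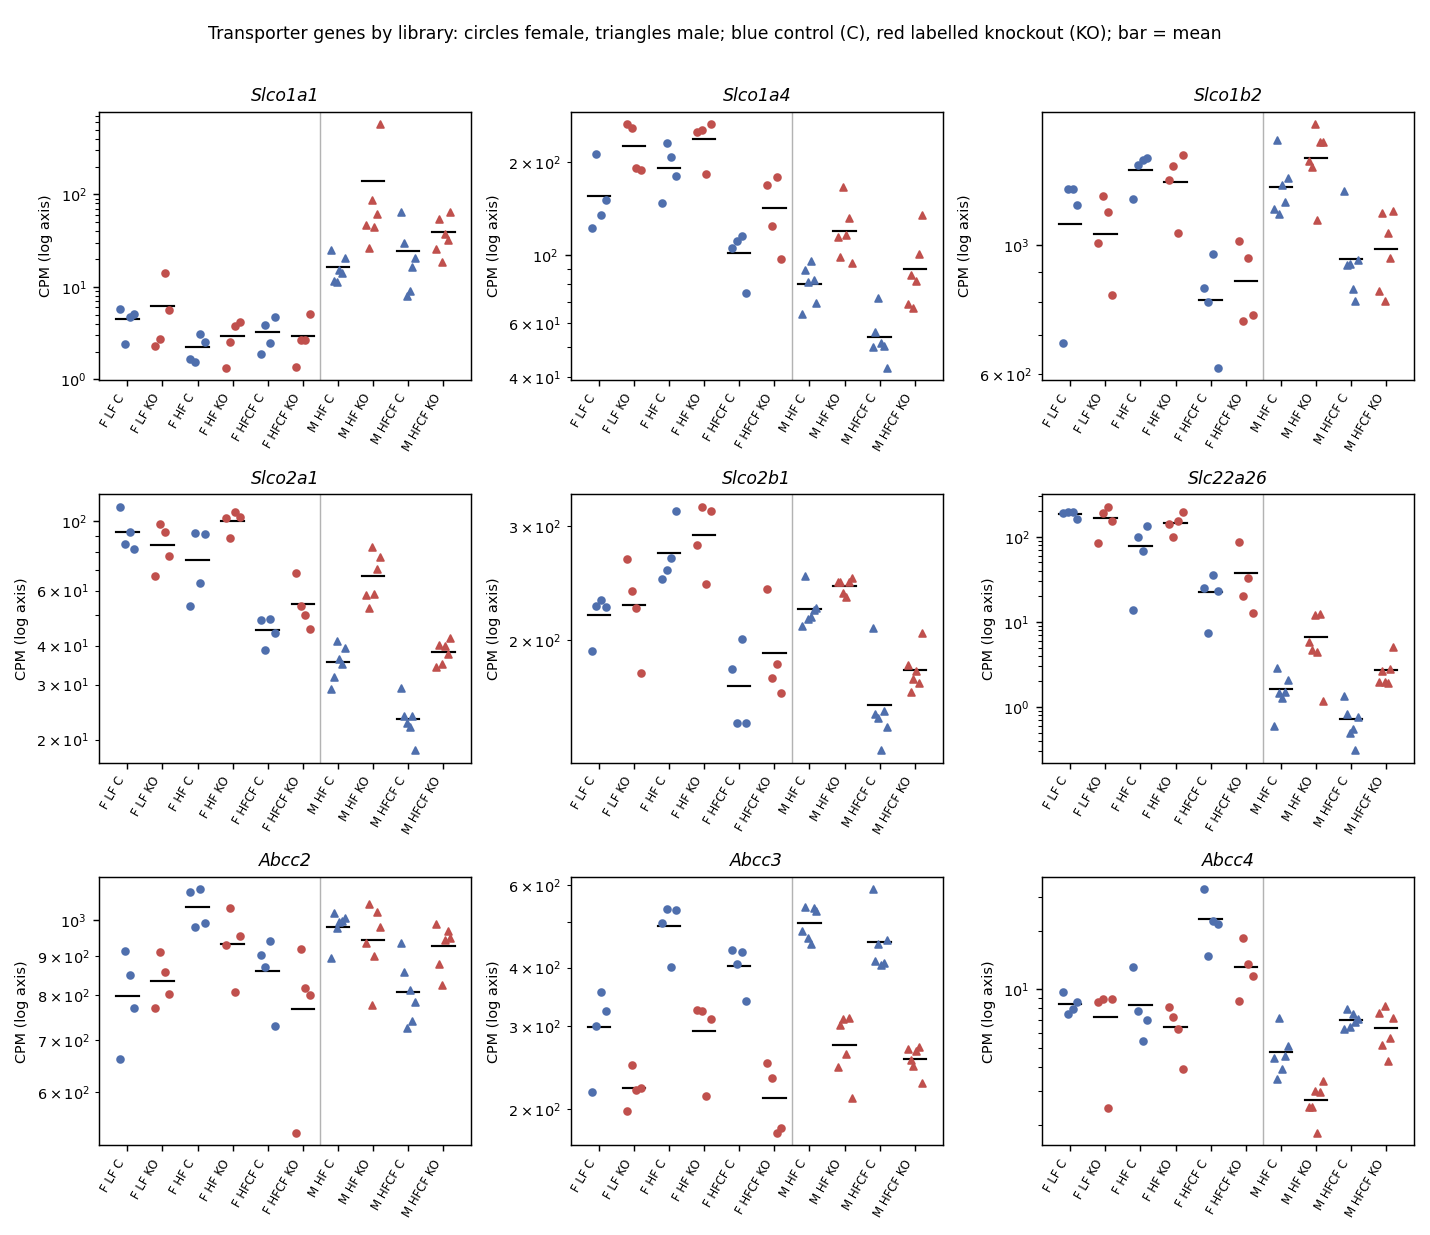
CPM of each member in each of the 48 libraries (log axis; each panel has its own range), by group, with the group mean as a bar, circles for females and triangles for males. Slco1a1 is higher in males and Slc22a26 higher in females, Abcc3 is lower in labelled-knockout than in control males without overlap, and 1 HF labelled-knockout male stands at 581 CPM for Slco1a1.

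The comparison of males with females was made within each diet and genotype. Slco1a1, an uptake carrier for steroid conjugates and bile acids, was higher in males in each of 4 comparisons. Slc22a26, an organic anion transporter of the SLC22 family, was lower in males in each of them, as were Slco2a1, the prostaglandin transporter, and Abcc4, a pump for bile acids, cyclic nucleotides and drug conjugates. Slco1a4, an uptake carrier for digoxin and bile acids, was lower in males in 3 of the 4. Slco1b2, Abcc2 and Abcc3 were called in none of the 4, although Abcc3 was called in HFCF labelled knockouts (log2 difference 0.37, edgeR adjusted p = 0.0359) when female replicate 1 was left out.

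In HF controls, 6 of the 9 members were called (edgeR quasi-likelihood test, adjusted p under 0.05), 1 higher and 5 lower in males, beside 18.1% (8.52% higher, 9.58% lower) of all genes tested. Slco1a1 measured 11.3 CPM at lowest, 14.7 at the median and 25.0 at highest in the 6 males, and 1.68, 1.56, 3.13 and 2.54 CPM in the 4 females. Every male lay above every female, and the log2 difference was 2.875 (SE 0.29, edgeR adjusted p = 0.000107). Slco1a1 was picked in part on these control males, so nothing is read from its call or from the count. Slc22a26 measured 0.599, 1.47 and 2.84 CPM (lowest, median, highest) in the males and 13.9, 98.9, 68.45 and 134.5 CPM in the females.

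Every female exceeded every male for Slc22a26, with a log2 difference of -5.58 (SE 0.54, edgeR adjusted p = 7.5e-05). The low female, at 13.9 CPM, is HF control replicate 1, whose summed female-predominant liver genes stood at 2196 CPM against 2900 to 4100 CPM in the other 3. Its cholangiocyte (bile duct cell) marker sum was 276.7 CPM against 43.7 to 73.3 CPM in the others. The part of either in the member values was not tested.

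Slco1a4 measured 64.3, 81.95 and 95.6 CPM (lowest, median, highest) in HF control males and 147.5, 231.5, 207.9 and 180.6 CPM in HF control females. The groups did not overlap, and the log2 difference was -1.25 (SE 0.13, edgeR adjusted p = 0.000125). Slco2a1 measured 29.0, 35.5 and 41.5 CPM in those males and 53.6, 91.8, 63.4 and 91.3 CPM in those females. Again every female exceeded every male (log2 difference -1.08, SE 0.15, edgeR adjusted p = 0.000939). Slco2b1, an uptake carrier for steroid sulfates, had a log2 difference of -0.28 (edgeR adjusted p = 0.0265) with overlapping groups, and was still called in 4 of 10 refits with 1 library removed. Abcc4 had one of -0.80 (edgeR adjusted p = 0.0447) and was still called in 2 of those 10; without HF control female replicate 1 it was -0.49 (edgeR adjusted p = 0.0896).

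In HF labelled knockouts 6 members were called too, 1 higher and 5 lower in males, beside 14.3% (7.32% higher, 7.02% lower) of all genes. Slco1a1 had a log2 difference of 5.57 (SE 1.04, edgeR adjusted p = 0.00413), and 4.16 (edgeR adjusted p = 4.14e-05) without male replicate 6. Slco1a1 was picked in part on these male libraries, so nothing is read from its call or from the count. The log2 differences were -4.46 for Slc22a26, -1.26 for Abcc4, -1.01 for Slco1a4, -0.60 for Slco2a1 and -0.27 for Slco2b1. Male and female libraries overlapped only for Slco2b1 among these 6; its edgeR adjusted p was 0.03, and it was still called in 4 of 10 refits with 1 library removed.

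In HFCF controls 5 members were called, 1 higher and 4 lower in males, beside 2.63% (1.3% higher, 1.34% lower) of all genes. Slco1a1 measured 8.08, 18.5 and 64.8 CPM (lowest, median, highest) in males and 1.895, 3.88, 2.495 and 4.75 CPM in females, with no overlap and a log2 difference of 2.92 (SE 0.60, edgeR adjusted p = 0.0204). That call was lost without female replicate 1, 2 or 3. Abcc4 measured 6.23, 6.91 and 7.93 CPM in males and 32.7, 14.95, 22.5 and 21.8 CPM in females. This was the widest sex difference of Abcc4 in the 4 comparisons, at -1.72 on the log2 scale (SE 0.17, edgeR adjusted p = 0.000123). Slc22a26 (-5.02), Slco2a1 (-0.95) and Slco1a4 (-0.91) were lower in males, with no overlap. Because Slc22a26 was picked in part on these male libraries, nothing is read from its call or from the count.

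In HFCF labelled knockouts 4 members were called, 1 higher and 3 lower in males, beside 5.4% (3.41% higher, 1.99% lower) of all genes. The log2 differences were 3.675 for Slco1a1, -3.81 for Slc22a26, -1.06 for Abcc4 and -0.52 for Slco2a1. Without female replicate 1 that of Slc22a26 was -3.0. This gene was picked in part on these male libraries, so nothing is read from its call or from the count. Slco1a4 had a value of -0.67 with an edgeR adjusted p of 0.0759. Its groups overlapped, and it was called without male replicate 6 or without female replicate 4. The call of Slco2a1 was lost without male replicate 1 or 5.

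**Figure D3:**
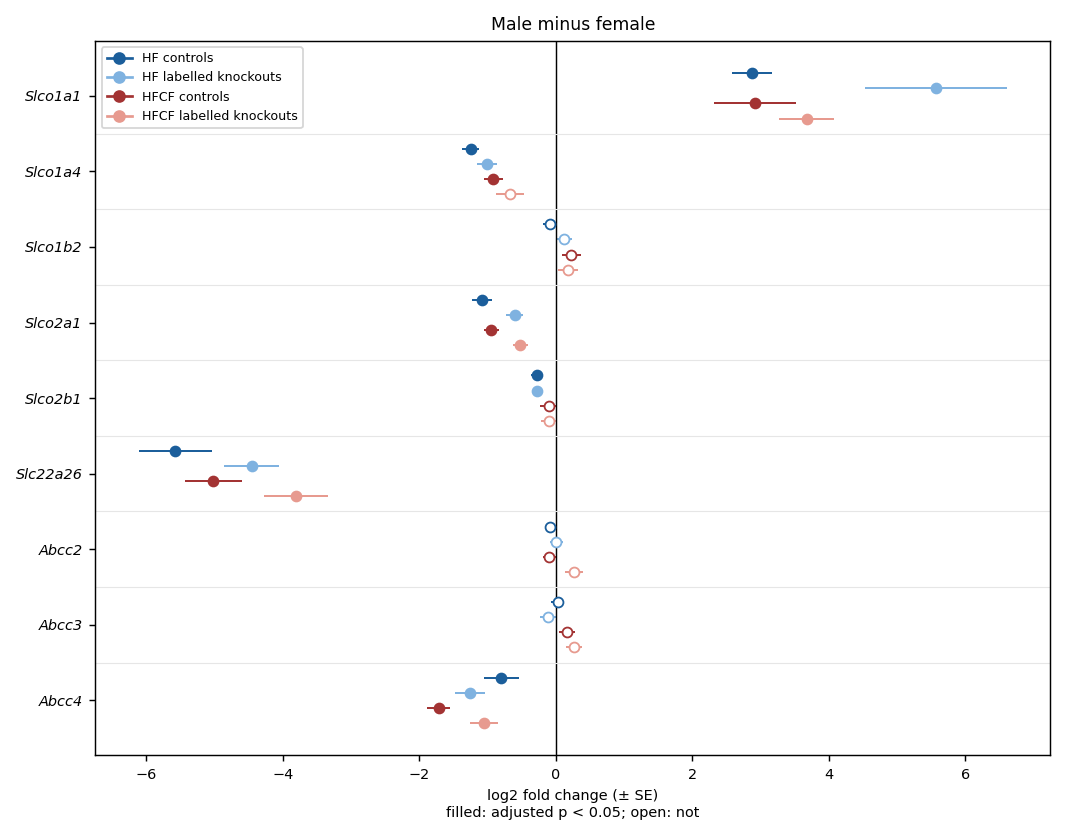
Male minus female log2 fold change (horizontal axis, ± SE) of each member in HF and HFCF controls and labelled knockouts; filled points have an edgeR adjusted p under 0.05. Slco1a1 lies to the right in all 4 (2.875 to 5.57), Slc22a26 to the left (-5.58 to -3.81), and Slco1b2, Abcc2 and Abcc3 near 0.

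Other genes of the same families split by sex as well. Of 14 other SLC22 genes tested, 1 to 3 were called higher and 1 to 3 lower in males across the 4 comparisons. Slc22a27 was lower in males in each, with 21.6 against 61.2 CPM in HF controls (log2 difference -1.50, edgeR adjusted p = 0.000816). Slc22a28 was higher in each, at 1.86 CPM in HF control males. Of the other ABC pumps, Abcg2, a canalicular pump for urate and drugs, was higher in males in each, with 83.55 against 37.0 CPM in HF controls (log2 difference 1.18, edgeR adjusted p = 0.000939). Slco4a1 was the 1 of 2 other OATP genes tested that was called in HF controls, at 0.320 against 0.9425 CPM.

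Of the male-predominant liver genes, 10 of 12, 11 of 12, 12 of 13 and 14 of 14 tested were higher in males (HF controls, HF labelled knockouts, HFCF controls, HFCF labelled knockouts) and 0 lower. Of the female-predominant genes, 15 of 16, 18 of 18, 16 of 16 and 17 of 17 were lower in males and 0 higher. Both lists hold genes known for their sex bias in liver. In HF controls the hepatic carriers (Slc10a1, the main bile acid uptake carrier, and others) had 2 higher and 6 lower of 10 tested in males, the transporter-regulating factors 0 higher and 5 lower of 15, and the NRF2 targets 9 higher and 0 lower of 12. In HFCF controls the same lists had 0 and 0 of 10, 0 and 1 of 15, and 1 and 0 of 13. Cux2, a female-predominant transcription factor gene, was the 1 regulating factor called there, at 1.03 CPM in males and 23.15 CPM in females (log2 difference -4.51, edgeR adjusted p = 0.00168).

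The effect of the labelled knockout was first asked in HF males, 6 against 6 libraries. The basolateral pumps Abcc3 and Abcc4 fell, and the uptake genes Slco1a4, Slco2a1 and Slc22a26 rose. Slco1a1 stood higher in every labelled knockout than in any control. Slco1b2, Slco2b1 and the canalicular pump Abcc2 did not pass the test.

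Abcc3, a basolateral pump for glucuronides and bile acids, measured 450.1, 503 and 538 CPM (lowest, median, highest) in HF control males and 211, 282 and 312 CPM in HF labelled-knockout males. Every labelled knockout lay below every control. The log2 difference was -0.87 (SE 0.09, edgeR adjusted p = 1.83e-05).

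Abcc4 measured 3.46, 4.52 and 7.15 CPM in the controls and 1.82, 2.74 and 3.37 CPM in the labelled knockouts. Again no library overlapped (log2 difference -0.83, SE 0.19, edgeR adjusted p = 0.0066).

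Slco2a1 measured 29.0, 35.5 and 41.5 CPM in the controls and 52.9, 64.3 and 82.75 CPM in the labelled knockouts. The groups did not overlap, and Slco2a1 rose by 0.91 on the log2 scale (SE 0.11, edgeR adjusted p = 5.79e-05). Slco1a4 rose from 80.5 ± 11.7 to 120.0 ± 26.25 CPM (SD, n = 6 each; log2 difference 0.57, SE 0.13, edgeR adjusted p = 0.00533), with overlap. Slc22a26 rose from a median of 1.47 CPM (0.599 to 2.84) to 5.20 CPM (1.17 to 12.25). Its log2 difference was 2.03 (SE 0.45, edgeR adjusted p = 0.00501), and the lowest labelled knockout, replicate 6, lay within the controls.

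Slco1a1, given as a description only, measured 25.0, 11.6, 11.3, 15.1, 14.25 and 20.4 CPM in the 6 controls and 46.35, 26.5, 87.3, 45.0, 61.5 and 581 CPM in the 6 labelled knockouts. The log2 difference was 3.11, and it was 1.71 without labelled-knockout replicate 6, which holds the 581 CPM. Without that library the labelled-knockout mean was 53.3 ± 22.7 CPM (SD, n = 5) in place of 141.3 ± 216.4 CPM.

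Of the 8 members other than Slco1a1, 5 were called in HF males, 3 higher and 2 lower, beside 18.5% (8.57% higher, 9.88% lower) of all 14041 genes. The median log2 difference of all 9 was 0.16, against 0 over all genes. The members were chosen in part on this comparison, so nothing is read from that count. Each of these 5 was called again in all 12 refits with 1 library removed.

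Marker genes of liver cell types also moved in HF males. Of 7 hepatocyte markers, 5 were higher in labelled knockouts and 0 lower, with sums of 66660 to 90000 CPM in controls and 94470 to 108600 CPM in labelled knockouts. Of the other marker lists, 1 of 5 cholangiocyte, 1 of 7 endothelial and 2 of 6 stellate cell genes tested were lower, 1 of 7 Kupffer cell and macrophage genes was higher, and 3 of 5 blood genes were higher. The cholangiocyte sum ran from 106.8 to 217.8 CPM in controls and from 58.8 to 121.9 CPM in labelled knockouts. Their part in the member values was not tested.

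Related transporters moved in both directions in HF males. Of 14 other SLC22 genes tested, 3 rose and 1 fell: Slc22a7, an organic anion carrier, rose from 11.05 to 36.2 CPM (log2 difference 1.70, edgeR adjusted p = 6.98e-05), and Slc22a28 rose by 1.32. Of 11 other ABC pumps, 2 rose, among them the canalicular bile salt pump Abcb11 (log2 difference 0.32), and 4 fell, among them the drug pump Abcb1a (-0.76) and the phospholipid flippase Abcb4 (-0.51). Of 9 other hepatic carriers, 5 rose, among them the nucleoside carrier Slc29a1 (0.68), and 2 fell. The 1 other OATP gene tested was not called.

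Genes that report on the regulators of these transporters were counted as well. Of 12 NRF2 targets, 1 rose and 7 fell in HF labelled-knockout males, led by Cbr3 (-1.79), Gsta1 (-1.47) and Me1 (-0.80). Me1 is also a lipogenic enzyme gene. Of 11 CAR and PXR targets 3 rose and 2 fell, of 4 AHR targets 1 rose and 1 fell, and of 14 regulating factors 4 rose and 2 fell. The AHR target that rose was Cyp1a2, from 155.7 to 396 CPM (log2 difference 1.34). Of the male-predominant genes 3 of 12 rose and 0 fell, and of the female-predominant genes 1 of 9 rose and 0 fell.

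In HFCF males 3 of the 8 members other than Slc22a26 were called, 2 higher and 1 lower, and since the members were chosen in part on this comparison nothing is read from that count. The background was 2.21% (0.933% higher, 1.27% lower) of 14685 genes. Abcc3 measured 405.1, 431 and 587 CPM (lowest, median, highest) in controls and 227.0, 260.0 and 271 CPM in labelled knockouts. No library overlapped, and Abcc3 fell by 0.82 on the log2 scale (SE 0.09, edgeR adjusted p = 0.000185). The highest control, at 587 CPM, is replicate 1.

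Slco2a1 measured 18.5, 23.2 and 29.3 CPM in HFCF control males and 34.1, 38.7 and 42.3 CPM in the labelled knockouts. It rose by 0.715 on the log2 scale (SE 0.09, edgeR adjusted p = 0.000714), with no overlap. Slco1a4 rose from 53.9 ± 9.96 to 89.8 ± 25.1 CPM (SD, n = 6 each; log2 difference 0.74, SE 0.16, edgeR adjusted p = 0.0274). Its groups overlapped, and its call was lost without control replicate 2, 4, 5 or 6 or labelled-knockout replicate 2 or 5.

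Slc22a26, described without a test here, spanned 0.308 to 1.34 CPM (median 0.651) in HFCF control males and 1.92 to 5.125 CPM (median 2.32) in labelled knockouts. Every labelled knockout lay above every control, with a log2 difference of 1.96. Abcc4, with 6.23 to 7.93 CPM in controls and 4.27 to 8.215 CPM in labelled knockouts, had a log2 difference of -0.13 (edgeR adjusted p = 0.751).

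In HFCF males the calls of Abcc3, Slco2a1 and Slco1a4 held without control replicate 1, but the count of called members depended on that library. Without it 3 more members were called, Slco1a1 (log2 difference 1.22, edgeR adjusted p = 0.0483), Slco2b1 (0.28, 0.0161) and Abcc2 (0.25, 0.0438). With it these were 0.66 (edgeR adjusted p = 0.555), 0.19 (0.387) and 0.20 (0.234). That library also had a cholangiocyte marker sum of 158.4 CPM against 473.3 to 568.9 CPM in the other 5 controls, a hepatocyte marker sum of 66150 CPM against 42930 to 60920 CPM, and a macrophage marker sum of 389.3 CPM against 490.8 to 760.5 CPM. In HF control males these sums spanned 106.8 to 217.8, 66660 to 90000 and 223.8 to 445.0 CPM, in the same order. The cholangiocyte and macrophage sums of that library thus lay within the HF control males. The part of these differences was not tested.

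Fewer related genes were called in HFCF males. Of 14 other SLC22 genes, 11 other ABC pumps, 15 regulating factors and the 1 other OATP gene tested, 0 were called, and of 10 other carriers 1 rose, the sulfate and anion exchanger Slc26a1 (log2 difference 0.53). Of the CAR and PXR targets 1 rose and 1 fell of 10, of the NRF2 targets 1 rose of 13, and of the AHR targets 1 rose of 4, Cyp1a2 (1.12). Of the male-predominant genes 1 of 14 fell, and of the female-predominant genes 2 of 10 rose. Of the hepatocyte, cholangiocyte, endothelial, stellate and blood markers 0 were called, and 1 of 7 Kupffer cell and macrophage genes rose.

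**Figure D4:**
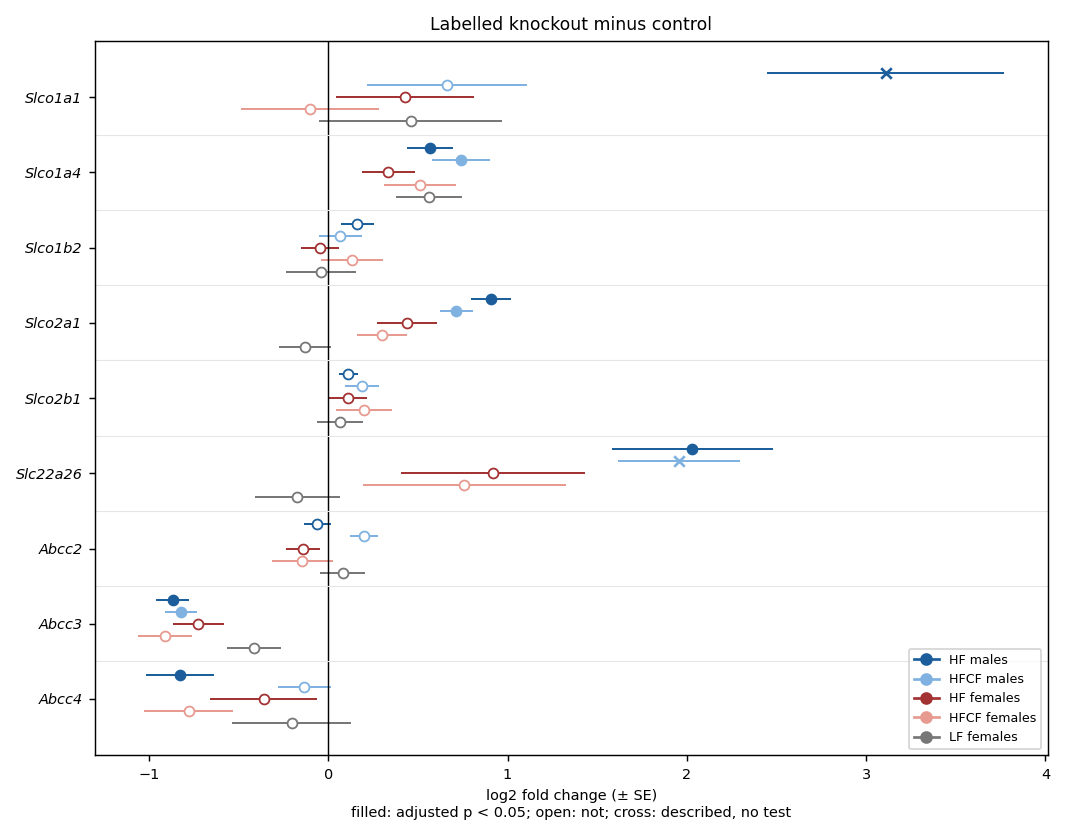
Labelled knockout minus control log2 fold change (horizontal axis, ± SE) of each member in 5 comparisons; filled points have an edgeR adjusted p under 0.05, open points do not, and crosses are described without a test. Abcc3 lies left of 0 in all 5 (-0.91 to -0.41), and Slco1a4 lies right of 0 in all 5 (0.34 to 0.74).

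In females, with 4 against 4 libraries, 0 members were called on any of the 3 diets by the edgeR quasi-likelihood test. The background was 0% of genes on the LF diet, 0% on the HF diet and 0.0534% (0.00668% higher, 0.0467% lower) on the HFCF diet. At an unadjusted p under 0.05 the members numbered 2, 3 and 3, beside 355 of 14285, 1135 of 14128 and 1340 of 14980 genes. The DESeq2 Wald test, not counted over all genes, called 0, 1 and 1. The gene it called on the HF and the HFCF diet was Abcc3.

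Abcc3 measured 497, 533, 402 and 529.9 CPM in the 4 HF control females and 325, 324, 213 and 312 CPM in the 4 HF labelled-knockout females. In HFCF females it measured 436, 407.0, 432 and 339 CPM in controls and 251, 234, 178 and 182.5 CPM in labelled knockouts. On both diets every labelled knockout lay below every control.

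The log2 difference of Abcc3 was -0.725 in HF females (SE 0.14) with an edgeR adjusted p of 0.383. By the DESeq2 Wald test the adjusted p was 0.000958, and by edgeR with all 10 groups in one fit it was 0.0141. In HFCF females the log2 difference was -0.91 (SE 0.15) with an edgeR adjusted p of 0.0791. By the DESeq2 Wald test it was 9.24e-06, by edgeR without a filter on low counts 0.0173, by edgeR with all 10 groups in one fit 0.000261, and by edgeR without labelled-knockout replicate 1 it was 0.0161 (log2 difference -1.01). The authors' deposited table gives adjusted p-values of 0.00196 and 9.28e-06 for Abcc3 in HF and HFCF females. On the LF diet Abcc3 measured 217.5, 301, 356, 324 and 198, 248, 220.1, 222 CPM, controls first, with overlap and a log2 difference of -0.41 (edgeR adjusted p = 1). The control at 217.5 CPM is replicate 1, and without it the log2 difference was -0.535.

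Whether the effect on Abcc3 differed between the sexes was tested directly. The male minus female difference of the log2 effects was -0.13 on the HF diet (SE 0.17, edgeR adjusted p = 0.791) and 0.09 on the HFCF diet (SE 0.17, edgeR adjusted p = 0.903). For the 9 members together, 0 were called for this difference on either diet, beside 0% of all genes. At an unadjusted p under 0.05 there were 2 and 3 members, beside 1590 of 15024 and 1515 of 15673 genes, and the DESeq2 Wald test called 0 in both. Slco1a1 on the HF diet and Slc22a26 on the HFCF diet were picked on these male libraries, so nothing is read from the counts.

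The other members in females gave values without calls. Slco1a4 had log2 differences of 0.56, 0.34 and 0.51 on the LF, HF and HFCF diets, Slco2a1 of -0.13, 0.44 and 0.30, and Abcc4 of -0.20, -0.36 and -0.78. Slc22a26 had -0.17, 0.92 and 0.76; the HF value was 0.57 without control replicate 1, and the HFCF value was -0.05 without labelled-knockout replicate 1. In HFCF labelled knockouts Slc22a26 measured 86.2, 20.03, 32.6 and 12.7 CPM, the first being replicate 1. That library had a hepatocyte marker sum of 109900 CPM against 64150 to 80070 CPM in the other 3, and a female-predominant sum of 2147 CPM against 795.5 to 1289 CPM. The part of these was not tested. In the 3 female comparisons 0 genes of the related-transporter, regulator and cell type lists were called.

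A difference in the effect of the labelled knockout on males between HFCF and HF was called for 0 members by edgeR, beside 1.56% (0.987% higher, 0.57% lower) of all genes. At an unadjusted p under 0.05 there were 3 members, beside 2574 of 15096 genes, and DESeq2 called 0. These counts include Slco1a1 and Slc22a26, picked in part on the same male libraries, so nothing is read from them. The difference was 0.68 for Abcc4 (edgeR adjusted p = 0.142) and -2.46 for Slco1a1, given without a test, or -1.06 without HF labelled-knockout replicate 6. The call of Abcc4 in HF males and not in HFCF males is therefore not shown to be a difference between the diets. Among related genes, Slc22a7 (-1.16, edgeR adjusted p = 0.0393) and Abcb1a (0.90, edgeR adjusted p = 0.00652) did pass this test.

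HFCF livers were then set against HF livers, separately for each sex and each genotype; these comparisons use the same libraries as those above, so they are not independent of them. Slco1b2, Slco2a1 and Slco2b1 fell in all 4 comparisons and Abcc4 rose in all 4. Slco1a4 fell in 3 and Slc22a26 in 3. Slco1a1 had log2 differences of 0.57 in control females, 0.02 in labelled-knockout females and 0.60 in control males, none of them called (edgeR adjusted p of 0.225, 0.981 and 0.323); the control male value was 0.05 without HFCF replicate 1. Abcc3 was called in none of the 4 with all libraries. Without HFCF control male replicate 1 it was called in control males (log2 difference -0.215, edgeR adjusted p = 0.0145), and without HFCF replicate 1 in labelled-knockout females (-0.55, edgeR adjusted p = 0.0262), where it was also called without HF replicate 3.

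In control females 5 members were called, 1 higher and 4 lower, beside 30.8% (16.9% higher, 13.8% lower) of all 14701 genes. In labelled-knockout females 6 were called, 1 higher and 5 lower, beside 14.5% (8.44% higher, 6.01% lower). In control males 7 were called, 1 higher and 6 lower, beside 22.3% (13% higher, 9.31% lower), and in labelled-knockout males 6, 1 higher and 5 lower, beside 41.7% (21.6% higher, 20% lower). Both male counts include Slc22a26, and that of labelled knockouts also includes Slco1a1. These genes were picked in part on the same male libraries, so nothing is read from either male count. The median log2 difference of the 9 members was -0.66, -0.565, -0.41 and -0.43 in that order, and that of all genes ran from -0.02 to 0.006.

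Slco1b2 measured 1201, 1377, 1400.0 and 1411 CPM in HF control females and 843, 798, 967 and 616 CPM in HFCF control females. The diets did not overlap, and the log2 difference was -0.72 (SE 0.14, edgeR adjusted p = 0.00802). In control males it fell from 1261 to 946 CPM on average (log2 difference -0.41, edgeR adjusted p = 0.0123), with overlap. In labelled knockouts the log2 difference was -0.565 (edgeR adjusted p = 0.0307) in females and -0.52 (edgeR adjusted p = 0.0013) in males.

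Slco2a1 measured 53.6, 91.8, 63.4 and 91.3 CPM in HF control females and 48.2, 38.9, 48.6 and 43.9 CPM in HFCF control females, without overlap (log2 difference -0.72, SE 0.17, edgeR adjusted p = 0.0139). In labelled-knockout females it measured 102.4, 88.2, 107.1 and 103.1 CPM on the HF diet and 68.4, 53.5, 50.2 and 45.2 CPM on the HFCF diet. Its value there was -0.88 (SE 0.13, edgeR adjusted p = 0.00408). In males the log2 difference was -0.59 in controls and -0.80 in labelled knockouts.

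Slco2b1 fell by similar amounts, with log2 differences of -0.66 and -0.60 in control and labelled-knockout females and -0.49 and -0.43 in control and labelled-knockout males. The HFCF libraries lay below the HF libraries without overlap in each of the 4. Slco1a4 fell in control females (log2 difference -0.90, SE 0.165, edgeR adjusted p = 0.00699), labelled-knockout females (-0.75) and control males (-0.57). In labelled-knockout males its value was -0.41 with an edgeR adjusted p of 0.0586, and it was called there without HF replicate 2 or 6 or HFCF replicate 6.

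Slc22a26 measured 140.9, 98.5, 151.9 and 195.7 CPM in HF labelled-knockout females and 86.2, 20.03, 32.6 and 12.7 CPM in HFCF labelled-knockout females. It fell there by 1.97 on the log2 scale (SE 0.50, edgeR adjusted p = 0.0276), and without HFCF replicate 1 (86.2 CPM) the log2 difference was -2.74. In control females, at 13.9, 98.9, 68.45, 134.5 CPM and 25.0, 7.40, 35.2, 23.2 CPM, the diets overlapped through the first HF library. The log2 difference of -1.77 had an edgeR adjusted p of 0.0528, and without that library it was -2.12 (edgeR adjusted p = 0.00212); it was also called without HFCF control replicate 3. In males the gene fell in controls (-1.20, edgeR adjusted p = 0.0313, called again in 6 of 12 refits with 1 library removed) and in labelled knockouts (-1.30). Slco1a1 fell in labelled-knockout males with a value of -1.86 (edgeR adjusted p = 0.0308), but without HF labelled-knockout replicate 6 the value was -0.46 (edgeR adjusted p = 0.24). The call was also lost without HFCF replicate 1, 3, 4 or 5, and the gene was picked in part on these HF values.

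Abcc4 went the other way. It measured 13.0, 7.79, 5.45 and 6.94 CPM in HF control females and 32.7, 14.95, 22.5 and 21.8 CPM in HFCF control females. The diets did not overlap, and the log2 difference was 1.48 (SE 0.29, edgeR adjusted p = 0.00867). In labelled-knockout females it measured 8.11, 7.215, 6.30 and 3.915 CPM on the HF diet and 8.78, 18.4, 13.6 and 11.7 CPM on the HFCF diet, a value of 1.04 (edgeR adjusted p = 0.0274). In males the log2 difference was 0.56 (edgeR adjusted p = 0.0185) in controls and 1.24 (edgeR adjusted p = 8.98e-05) in labelled knockouts.

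Whether this diet effect differed between male and female controls was tested, and 0 members were called by edgeR, beside 0.00646% of all genes. At an unadjusted p under 0.05 there was 1 member, beside 2561 of 15491 genes, and DESeq2 called 0. The control males entered the choice of Slco1a1 and Slc22a26, so nothing is read from these counts. For Abcc4 the male minus female difference was -0.92 (SE 0.32, edgeR adjusted p = 0.22). Without HF control female replicate 1, where Abcc4 was 13.0 CPM, the highest of its group, it was -1.22 (edgeR adjusted p = 0.0131).

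The count in labelled-knockout females rested on single libraries. It was 1 without HF replicate 4, HFCF replicate 2 or HFCF replicate 4, it was 2 without HF replicate 1 or 2 or HFCF replicate 3, and it was 7 without HF replicate 3 or HFCF replicate 1. Slco2a1 kept its call in all 8 of these fits. Abcc2 was called in control males only (log2 difference -0.27, edgeR adjusted p = 0.0157), with values of -0.25, -0.27 and -0.03 in the other 3 comparisons.

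**Figure D5:**
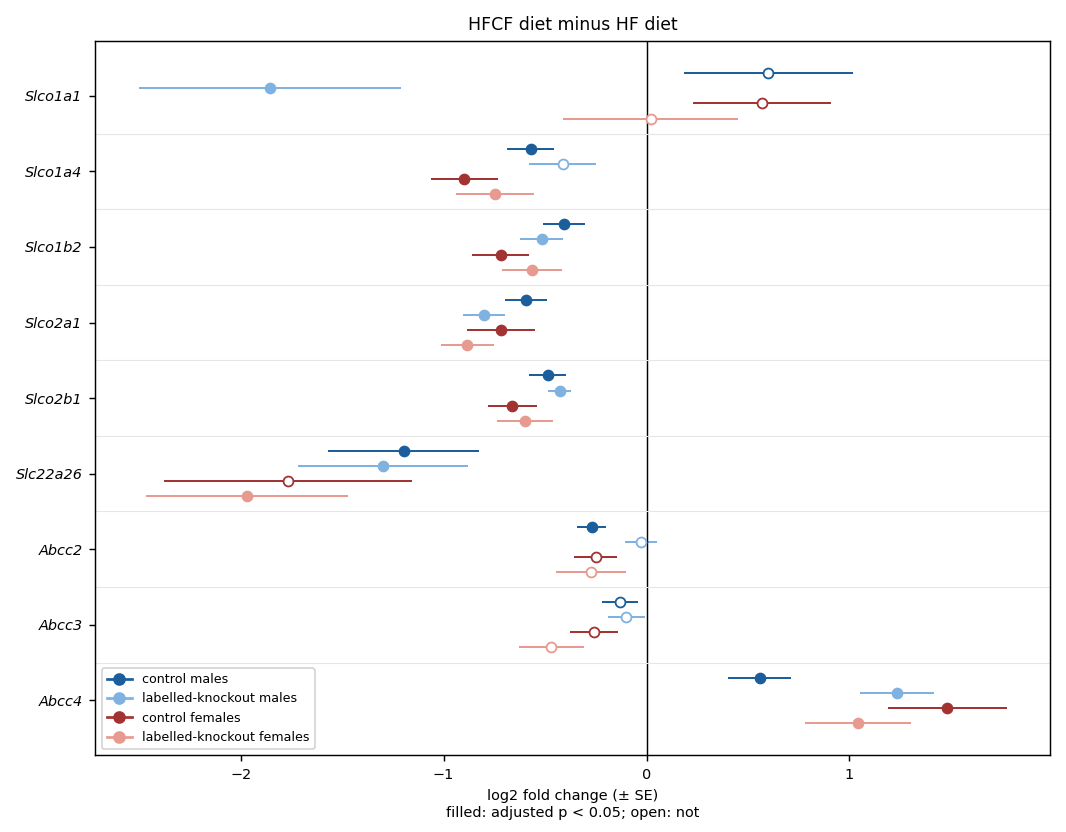
HFCF minus HF log2 fold change (horizontal axis, ± SE) of each member in control and labelled-knockout males and females; filled points have an edgeR adjusted p under 0.05. Slco1b2, Slco2a1 and Slco2b1 lie left of 0 and filled in all 4, and Abcc4 lies right of 0 and filled in all 4 (0.56 to 1.48).

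Cell type markers moved with the same diet comparison. All 6 cholangiocyte markers were higher on the HFCF diet in each of the 4 comparisons; their sum ran from 43.7 to 276.7 CPM in HF and 301.5 to 551.8 CPM in HFCF control females, and from 106.8 to 217.8 and 158.4 to 568.9 CPM in control males. Hepatocyte markers had 0 higher and 4, 0, 4 and 5 lower of 7 (control females, labelled-knockout females, control males, labelled-knockout males). Their sum ran from 93980 to 109400 and 56980 to 69510 CPM in control females, HF first, and from 66660 to 90000 and 42930 to 66150 CPM in control males. Kupffer cell and macrophage markers had 4, 1, 4 and 5 higher, and 0, 0, 0 and 1 lower, of 7. Endothelial markers had 6, 2, 0 and 2 higher of 7, stellate cell markers 1, 4, 2 and 3 higher of 6, and blood markers 0, 0, 0 and 5 lower of 5. The part of cell makeup in the member values was not tested.

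Other transporters followed the diet in groups, given in the same order of comparisons. Of 10 other hepatic carriers tested, 7, 7, 6 and 7 fell and 0, 2, 0 and 2 rose. The bile acid uptake carrier Slc10a1 led those that fell in each, from 698 to 262 CPM in control females (log2 difference -1.39, edgeR adjusted p = 0.00546). Of the other SLC22 genes, 6, 4, 3 and 6 fell and 0, 0, 0 and 1 rose. Slco3a1, a widely expressed OATP, was the 1 other OATP gene that rose in each, from 5.02 to 13.3 CPM in control females (log2 difference 1.42, edgeR adjusted p = 0.00633). Of 11 other ABC pumps 5, 2, 2 and 8 rose and 1 fell in each, Abcc6.

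Regulators and their targets were counted in the same 4 comparisons. Of 15 regulating factors 7, 4, 5 and 4 fell and 0, 0, 0 and 1 rose. Nr1i3, which encodes the receptor CAR, was among those that fell in each, from 166.5 to 64.3 CPM in control females (log2 difference -1.345, edgeR adjusted p = 0.00694). Targets of CAR and PXR had 4, 3, 3 and 4 higher and 2, 2, 1 and 3 lower, NRF2 targets 4, 4, 1 and 7 higher and 1, 0, 1 and 1 lower, and AHR targets 2, 1, 1 and 1 higher and 1 lower in each. Of the female-predominant genes 11, 9, 6 and 4 were lower and 2 were higher in each, and of the male-predominant genes 1, 2, 3 and 1 were higher and 4, 0, 0 and 6 lower.

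LF livers came from females alone, and HF females were set against them. In controls 0 members were called by edgeR, beside 0.696% (0.443% higher, 0.253% lower) of all genes. There were 5 members at an unadjusted p under 0.05, beside 2314 of 14216 genes. DESeq2, not counted over all genes, called 2, Abcc2 and Abcc3. In labelled knockouts 0 were called, beside 0.155% (0.0704% higher, 0.0844% lower) of genes. There were 3 members at an unadjusted p under 0.05, beside 1902 of 14214 genes, and 0 called by DESeq2.

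In controls Abcc3 measured 217.5, 301, 356 and 324 CPM on the LF diet and 497, 533, 402 and 529.9 CPM on the HF diet, with every HF library above every LF library. The log2 difference was 0.71 (SE 0.15, edgeR adjusted p = 0.0712; DESeq2 adjusted p = 0.00102). Slco2b1 (0.315) and Abcc2 (0.38) had HF libraries above LF libraries without overlap. Slc22a26, at 192.5, 197, 197.0 and 163.0 CPM on the LF diet and 13.9, 98.9, 68.45 and 134.5 CPM on the HF diet, had them below (log2 difference -1.26, edgeR adjusted p = 0.25). The HF library at 13.9 CPM is control replicate 1, and the LF library at 217.5 CPM for Abcc3 is LF control replicate 1. Without both, the log2 difference was -0.88 for Slc22a26 (edgeR adjusted p = 0.0746) and 0.58 for Abcc3 (edgeR adjusted p = 0.0706). It was then 0.30 for Slco2b1 and 0.28 for Abcc2. Of the related transporters in controls, 1 SLC22 gene, Slc22a29, was called higher, and in labelled knockouts 0 were called.

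The genes most like a member across the 10 groups were found for the 5 members whose group means spanned at least 2 on the log2 scale, among 12351 genes, by the root-mean-square difference of centred log2 group means. The genes searched had a mean of at least 1 CPM, and Gm, Rik and accession-style symbols were left out. The matches are a description over 10 points that share libraries. For Slco1a1 they were Slc22a28 (0.44), Nat8 (0.57) and Mup21 (0.67), and for Slc22a26 they were Eci3 (0.82), Cyp3a63-ps (0.94) and Cux2 (0.975). For Slco1a4 they were Ces1c (0.18), Notumos (0.18) and Papss2 (0.19), and for Slco2a1 Mbl2 (0.12), Ces1c (0.13) and Esr1 (0.15). For Abcc4 they were Ccnd1 (0.305), Pygo1 (0.34) and Slc5a1 (0.37). Male group means were at most 0.113 CPM for Eci3 and 0.029 CPM for Cyp3a63-ps, near the floor. The group means of Eci3 and Cyp3a63-ps spanned 5.57 and 5.43 on the log2 scale, against 7.93 for Slc22a26.

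Some members share stretches of transcript sequence with other genes, and their counts carry that limit. Of the 50-base windows in the longest transcript, 5.88% of those of Slc22a26 (165 of 2805) also occurred in AC115715.1, 2.73% of those of Slco1a4 occurred elsewhere, mostly in Slco1a5, and 2.26% of those of Slco1a1, mostly in Slco1a4. The share was 0.778% for Slco2a1 and 0.313% for Abcc2, and Slco1b2, Slco2b1, Abcc3 and Abcc4 shared 0 windows. Libraries were not strand specific, so reads cannot be told apart where genes on opposite strands overlap. Gm15635 and Gm34280 overlap Slco2b1 in this way, with at most 122 and 31 reads of their own in a library. Gm22595 and Gm47468 overlap Slco2a1 in this way, with at most 4 and 8. On the same strand as the member, Gm22036 overlaps Slco1a1, with at most 14, and Gm25842 overlaps Slco2a1, with at most 2.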

How the data were processed

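RNA of 48 mouse livers in 10 groups was sequenced, and groups were taken from the labels. The authors deposited 11 tables of pairwise comparisons, each with raw read counts per gene for its libraries, per the file headers. The submitters' processing notes name STAR 2.6.1, HTSeq 0.6.1, DESeq2 and GRCm38, with no parameters. The deposited log2 fold changes and adjusted p-values are the authors' own and are quoted as such. Deposited normalised and FPKM columns were not used, and gene length came from the deposited tables.

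The tables were joined by gene identifier; 0 of 1341082 repeated values differed. Each comparison was fitted on its own groups with edgeR 4.0.16 (limma 3.58.1, R 4.3.3): filterByExpr on low counts, TMM scaling, quasi-likelihood test and Benjamini-Hochberg adjustment over all 14041 to 15673 genes tested. A gene was called at an adjusted p under 0.05. Levels are CPM from TMM-scaled library sizes, log2 levels use a prior count of 2, and the fits were tested on simulated data. With 4 to 6 libraries per group, precision rests on their spread (biological coefficient of variation 0.138 to 0.214).

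The members and gene lists were chosen with earlier results of these data known. The text names the members, Pparg and, from each list, at most 3 called genes with the largest absolute change in a comparison, and the 3 genes most alike to a member. Cidec, Hsd3b5, Alb, the motifs and the 5 libraries that stand apart were chosen after the values were seen. That set of libraries was changed once, from 3 to 5. The lists cover other OATP, SLC22, ABC and carrier genes, regulating factors, CAR and PXR, NRF2 and AHR targets, sex-predominant genes and markers of hepatocytes, cholangiocytes, endothelium, macrophages, stellate cells, blood and pancreas. Alternatives were DESeq2 1.42.0 (Wald test and size factors), no filter or at least 10 counts, all 10 groups in one fit, a replicate block, and leaving out each library or those that stand apart. Alternatives were counted for the members alone, without a share over all genes. Comparisons share libraries and are not independent. Promoters came from RefSeq.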

Additional observations from a re-analysis of the deposited data

Results flagged for a closer look

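Of 90 sets of 1 member in 1 group, 13 held a library far from the others by Dixon's test at the 95% level; chance alone gives about 1 in 20. For Slco1a1, HF labelled-knockout male replicate 6 was at 581.1 CPM (nearest other library 87.3). For Slco1b2, HFCF control male replicate 1 was at 1239 CPM (942.3), LF control female replicate 1 at 677.5 CPM (1175) and HF control female replicate 1 at 1201 CPM (1377). For Slco2b1, HF control male replicate 2 was at 251.3 CPM (224.6), HFCF control male replicate 1 at 209.2 CPM (155.3) and LF control female replicate 1 at 192.2 CPM (225.4). For Slc22a26, HFCF labelled-knockout male replicate 6 was at 5.125 CPM (2.814) and LF control female replicate 4 at 163.0 CPM (192.5). For Abcc2, HF control male replicate 1 was at 892.7 CPM (976.9). For Abcc3, HFCF control male replicate 1 was at 586.7 CPM (457.1) and HF labelled-knockout female replicate 3 at 213.4 CPM (311.9). For Abcc4, LF labelled-knockout female replicate 3 was at 2.452 CPM (8.618).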

How the results depend on the processing

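No member changed direction where it was called, and 55 pairs of member and comparison passed the threshold, including the 2 pairs described without a test, which also enter the counts below. Of these, DESeq2's Wald test kept 53, lost 0 and gave no adjusted p for 2, and it gained 9. DESeq2's size factors kept 55 and gained 0, and fitting all 10 groups together kept 50, lost 5 and gained 8. With no filter 54 were kept, 1 lost and 4 gained, and without the libraries that stand apart 53 were kept, 2 lost and 10 gained. With all 10 groups together, the fall of Slc22a26 and the rise of Abcc4 on the HFCF diet in control males (7 to 5 members) and the lower Slco2b1 of HF males of both genotypes were no longer called. In control females HFCF against HF went from 5 to 7 with DESeq2, which added Slc22a26 and Abcc2. Counts that moved by more than 1.5 times were these. Between labelled knockouts and controls, HFCF males went from 4 to 7 without the libraries that stand apart. HF females went from 0 to 1 with DESeq2 and with all 10 groups, and HFCF females from 0 to 1 with those, with no filter and without the libraries that stand apart. For HF against LF in control females the count of 0 became 2 with DESeq2, 1 with no filter and 2 with all 10 groups. The diet by sex difference in controls went from 0 to 1 without the libraries that stand apart. Leaving out 1 library gave 6 to 6 (HF males), 3 to 7 (HFCF males), 0 to 0 (LF and HF females) and 0 to 1 (HFCF females) for labelled knockouts. It gave 0 to 0 for HF against LF in both genotypes, 5 to 6 and 1 to 7 for HFCF against HF in control and labelled-knockout females, and 6 to 8 and 5 to 7 in males. For sex it gave 4 to 5 and 5 to 6 on HF and 4 to 5 and 3 to 5 on HFCF, controls first. The differences between effects gave 0 to 0, except 0 to 1 for diet by sex. Replicate numbers did not pair the libraries: correlations of same-numbered libraries ran from -0.293 to 0.435, and in 0 of 15 comparisons was every pair over 0.1. With the replicate block 36 of the 55 calls were kept and 19 lost; HFCF against HF went from 5 to 0 in control and 6 to 3 in labelled-knockout females, and the HFCF labelled-knockout sex count from 4 to 2. The cause of these moves was not tested.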
